A study of Mus musculus with 2 samples.

Results

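The genes described here encode 3 stathmins (Stmn1, Stmn2, Stmn3), 4 tubulins (Tuba1a, Tubb2a, Tubb2b, Tubb3), the microtubule-associated proteins Map2 and Dcx, and the growth-cone protein Gap43. They are 10 of the 19144 genes in the deposited count table and were chosen by name, to see which are shared with neural progenitors, which lie mainly in cells with neuronal genes, and how they relate to the cell cycle. All 10 were in the table. Microtubules are polymers of alpha- and beta-tubulin, and a cell builds them from several isotypes, some common to dividing cells and some known from neurons. Stathmins bind free tubulin dimers and destabilise microtubules. Microtubule-associated proteins such as Map2 and doublecortin bind the polymer, and in young neurons these systems shape the growing axon and its tip, the growth cone.

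The cells came from neurospheres, floating colonies grown from the lateral ventricle walls of CD1 mouse embryos in serum-free medium with leukemia inhibitory factor (LIF), the cytokine used to obtain primitive neural stem cells. No genotype other than the CD1 strain, no second treatment and no embryonic age is given, and the medium protocol also names an additive, EFH, without explaining it. Transcripts were counted by Drop-seq as unique molecular identifiers (UMIs), 1 per captured molecule, per cell barcode. The submitters list 2 samples, pNSCs1 and pNSCs2, in a single group, and no barcode is tied to either of them, nor is it stated whether the single table holds both. It was therefore taken as 1 sample: there is no spread over samples, no test was run, and every comparison is between cells of the same table. Whether nuclei or whole cells were captured is stated both ways, and barcodes are called cells here.

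Of 4000 barcodes, 3765 had at least 500 genes and at most 10% mitochondrial UMIs and were kept, with a median of 3869 UMIs (638 to 54060). A level is the sum of a gene's UMIs over a class of cells per 1000000 UMIs of that class (CPM). Since 1 captured molecule gives 1 UMI whatever its length, CPM of different genes were set side by side. Differences between genes in capture and in read assignment were not corrected for. The classes were defined by genes, without clustering. Neuronal-gene cells had UMIs of at least 2 of the 4 genes Snap25, Rbfox3, Gad1 and Gad2, and there were 21 of them (0.558% of kept cells) with 69865 UMIs in all. Progenitor cells had none of those 4 genes, none of 12 neuroblast transcription factor genes and at least 3 of the 6 progenitor genes Vim, Nes, Fabp7, Sox2, Sox9 and Slc1a3, and there were 3118 of them (82.8%). All intervals are at 95% and cover counting error only.

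The neuronal-gene cells were checked against marker lists. Of the list of 10 neuron markers, 4 define the class. The 6 others (Elavl3, Elavl4, Syt1, Myt1l, Nhlh1 and Celf4) stood at 1374 CPM (1113 to 1678) in neuronal-gene cells, against 46.5 CPM (43.0 to 50.2) in progenitor cells. Of the 21 neuronal-gene cells, 16 had a UMI of these 6 genes and 5 had none (0 to 15 UMIs, median 3), and Nhlh1 was at 0 in both classes. The list of 10 progenitor markers was at 6112 CPM in neuronal-gene cells, against 13414 CPM in progenitor cells, and ranged from 1 to 151 UMIs per neuronal-gene cell, with Hes5 at 0. Of these 10 markers, 6 define the progenitor class, so the direction is partly set by the definition. The 16 neuronal-gene cells with fewer than 10 Fabp7 UMIs, a split on 1 gene of that list, held 63 of its 427 UMIs (1991 CPM). The endothelial and the mural or fibroblast lists had no UMI in neuronal-gene cells. They were at only 4.37 and 2.26 CPM in progenitor cells, so a count of 0 in so few cells says little. The astrocyte list had 8 UMIs in 6 neuronal-gene cells (115 CPM, against 291 CPM in progenitor cells). The oligodendrocyte precursor list had 2 UMIs and the oligodendrocyte list 1. The neuronal-gene cells were shallower, at a median of 2196 UMIs against 3852.5 in progenitor cells.

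The 10 genes fell into a graded order rather than a single neuronal set. Stmn2, Tubb3 and Dcx were nearly absent from progenitor cells, at 0.917, 3.24 and 0.705 CPM. Stmn3 and Stmn1 were at moderate levels there, at 83.5 and 58.5 CPM. Gap43, Tuba1a, Map2, Tubb2a and Tubb2b were abundant in progenitor cells, at 315 to 1886 CPM. A gene was called past the fold when the whole interval of its CPM ratio lay above 1.5 or below the inverse of 1.5, among genes with at least 50 UMIs over the kept cells. Of the 9 genes with that many UMIs, 6 were above the limit in neuronal-gene cells over progenitor cells and 0 were below it; over all 11043 genes compared, 3.62% were above and 0.57% below. The median ratio of the 9 was 3.15, and that of all genes compared was 0.889. Dcx, with 38 UMIs over the kept cells, was not among the 9. Stmn2 had 111 UMIs over the kept cells, 66 of them in neuronal-gene cells. It thus reached the minimum of 50 only with the class in which it was high, here and in each later count out of the 9. When cells with at least 1 of the 4 neuronal genes were taken in place of those with 2, Stmn2 and Tubb3 remained above the limit and the calls of Stmn3, Gap43, Stmn1 and Tuba1a were lost, with ratios of 1.73, 1.11, 0.967 and 0.963. Under 2 further definitions other calls were lost. Those of Gap43 (1.96) and Tuba1a (1.68) were lost in the 10 cells with at least 2 UMIs of the 4 genes after thinning. These UMIs can be of 1 gene, so the 10 cells need not be among the 21. That of Stmn1 (2.08) was lost in the 5 cells with at least 3 of the 4 genes.

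**Figure D1:**
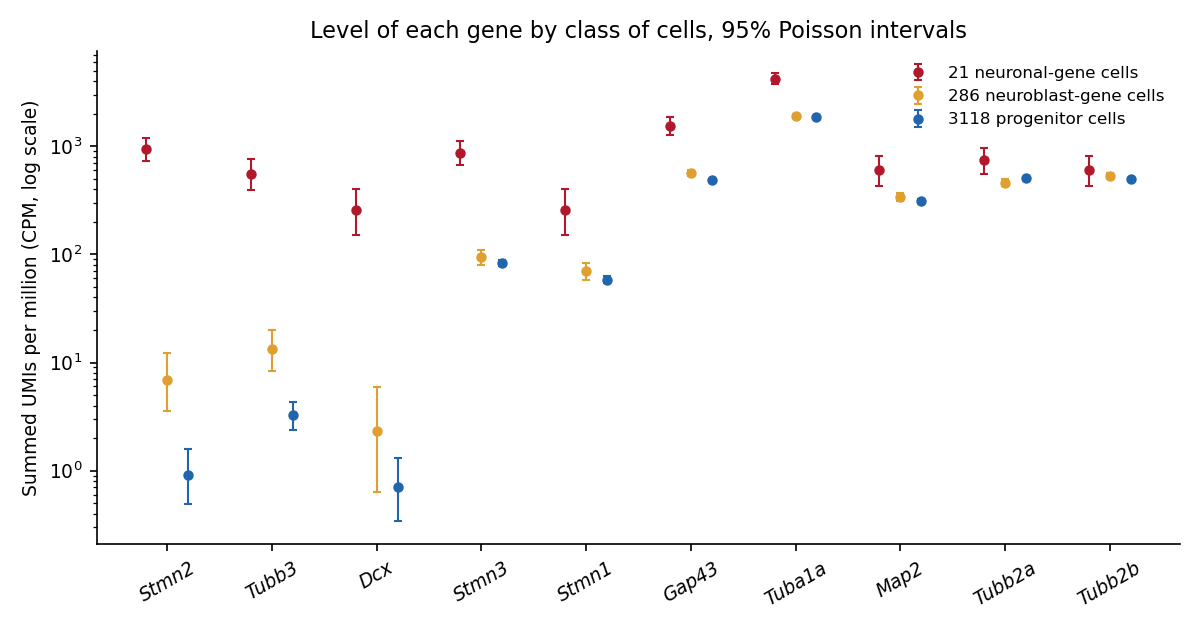
Level of each gene (CPM, log axis) in neuronal-gene cells, neuroblast-gene cells and progenitor cells, with exact 95% Poisson intervals. Stmn2, Tubb3 and Dcx differ by over 100-fold between neuronal-gene and progenitor cells, while Map2, Tubb2a and Tubb2b lie close together in all 3 classes.

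Stmn2 (chromosome 3, 8509360 to 8561606, mm10), the neuronal stathmin also called SCG10 that is anchored to vesicles of the growth cone, had the highest ratio. It had 66 UMIs in the 21 neuronal-gene cells, or 944.7 CPM (731 to 1202), against 13 UMIs in 3118 progenitor cells, or 0.917 CPM (0.488 to 1.57), a ratio of 1031 (563 to 2037). Its level did not rest on evenly loaded cells, since 1 neuronal-gene cell held 21 of the 66 UMIs. Each of the 13 progenitor cells with Stmn2 had a single UMI, a share of 0.417% of progenitor cells (0.222 to 0.712). Stmn2 was found in 57.1% of neuronal-gene cells (34.0 to 78.2), and after every cell was thinned at random to 1000 UMIs it was found in 52.6% of 19 neuronal-gene cells (28.9 to 75.6), against 0.0665% of 3006 progenitor cells (0.00806 to 0.240).

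Stmn3 (chromosome 2, 181306459 to 181314500), a neuron-enriched stathmin also called SCLIP, was shared in part. It reached 873 CPM (668 to 1122) in neuronal-gene cells, against 83.5 CPM (78.8 to 88.4) in progenitor cells, a ratio of 10.5 (7.95 to 13.5). Although its level was 10.5 times higher there, progenitor cells held 76.4% of all Stmn3 UMIs, because they are many. At least 1 Stmn3 UMI was seen in 71.4% of neuronal-gene cells (47.8 to 88.7), against 25.5% of progenitor cells (24.0 to 27.1). Stmn1 (chromosome 4, 134468320 to 134473843), the ubiquitous stathmin or oncoprotein 18 of dividing cells, was at 258 CPM (153 to 407) in neuronal-gene cells, from 18 UMIs, against 58.5 CPM (54.5 to 62.6) in progenitor cells. Its ratio of 4.41 (2.60 to 7.01) was past the fold. In neuronal-gene cells Stmn1 was the lowest of the 3 stathmins, while in progenitor cells it ranked between Stmn3 and Stmn2.

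Among the beta-tubulins, Tubb3 (chromosome 8, 123411424 to 123422015), the neuron-specific isotype used as the marker TuJ1, stood apart. It was at 558 CPM (397 to 763) in neuronal-gene cells, against 3.24 CPM (2.37 to 4.33) in progenitor cells, a ratio of 172 (109 to 269.5). Tubb2a (chromosome 13, 34074274 to 34078007) and Tubb2b (chromosome 13, 34126748 to 34130466), neighbouring class II isotypes that are major beta-tubulins of the developing brain, were shared. Tubb2a was at 744 CPM (556 to 976) in neuronal-gene cells, against 508.5 CPM (497 to 520.3) in progenitor cells, and Tubb2b at 601 CPM (433 to 813), against 502 CPM (491 to 514). Their ratios of 1.46 (1.09 to 1.92) and 1.20 (0.862 to 1.62) did not pass the fold, and the interval of Tubb2b includes equal levels. Tuba1a (chromosome 15, 98949837 to 98953703), the main alpha-tubulin of newborn neurons, was the most abundant of the 10 genes in both classes. It was at 4251 CPM (3781 to 4763) in neuronal-gene cells, against 1886 CPM (1864 to 1909) in progenitor cells, a ratio of 2.25 (2.004 to 2.53) that was past the fold. It was the single member with a UMI in all 21 neuronal-gene cells, and 94.6% of progenitor cells had one as well.

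Counts of 3 members can be too high or too low because of near-identical copies. Over the last 400 bases of their transcripts, where these reads lie, Stmn1 matched the processed pseudogene Gm11223 at 99.7% over 308 bases, Tubb2a matched Tubb2a-ps2 at 98.6% over 207 bases and Tuba1a matched Gm17383 at 100% over 203 bases. Their levels are uncertain to that extent, since how the authors assigned such reads is not given in the sources used here. The end of Tubb3 matched that of Tubb6 at 87.5% over 399 bases, and those of Tubb2b, Stmn2, Stmn3 and Gap43 matched no other gene. That of Map2 matched Map4 at 67.3% over 300 bases. The end of Dcx had matches to at least 821 other gene entries, as each search was capped in its number of matches. Of these Dclk1, at 70.7% over 174 bases, ranked first by identity times length, and shorter matches of Dcx were not examined.

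RefSeq promoter windows were matched for 6 of the 10 genes (Map2, Stmn3, Tubb3, Tubb2a, Tuba1a and Dcx). Those of Stmn3, higher in neuronal-gene cells, and Tubb2a, shared with progenitors, are shown because their RefSeq starts lie within 1 base of the gene start used above. They are the 250 bases before the start on the minus strand, chr2:181314501-181314750 and chr13:34078009-34078258 (RefSeq, GRCm38.p6), written 5′ to 3′ with GGGCGG or its reverse CCGCCC, the GC box, in capitals.
Stmn3: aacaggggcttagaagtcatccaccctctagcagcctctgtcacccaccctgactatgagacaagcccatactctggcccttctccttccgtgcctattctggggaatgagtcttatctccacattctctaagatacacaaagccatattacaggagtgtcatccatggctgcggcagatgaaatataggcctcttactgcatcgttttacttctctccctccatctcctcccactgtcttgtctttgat
Tubb2a: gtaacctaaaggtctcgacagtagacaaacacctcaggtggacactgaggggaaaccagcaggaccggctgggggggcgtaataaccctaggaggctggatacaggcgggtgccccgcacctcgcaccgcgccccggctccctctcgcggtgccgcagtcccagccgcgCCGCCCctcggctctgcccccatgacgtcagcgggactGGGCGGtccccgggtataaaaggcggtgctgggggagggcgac
The Stmn3 window held no GC box and 48.8% G or C, and the Tubb2a window held 2, at 81 and 43 bases before the start, with 68.4% G or C. Of 32851 RefSeq windows of the same length, 32.7% held a GC box on either strand, and the median G or C content was 52.4%. Tubb2a also had TATAAA 29 bases before its start, a motif present in 12.4% of all windows, which the Stmn3 window lacked. Each held 1 E-box (CANNTG), as did 66.2% of all windows. Of the other windows, those of Tubb3, Map2 and Tuba1a held 2, 5 and 1 GC boxes and those of Dcx none. A GC box was thus present both before Tubb3, nearly absent from progenitor cells, and before Tubb2a, which they share.

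The microtubule-associated proteins also divided. Dcx (chromosome X, 143855842 to 143933311), doublecortin, which stabilises microtubules in migrating neuroblasts and young neurons, had 18 UMIs or 258 CPM (153 to 407) in neuronal-gene cells, against 10 UMIs or 0.705 CPM (0.338 to 1.30) in progenitor cells. The ratio was 365 (160 to 886). Map2 (chromosome 1, 66175273 to 66442583), which in mature neurons marks cell bodies and dendrites, was at 601 CPM (433 to 813) in neuronal-gene cells, against 315 CPM (306 to 325) in progenitor cells, and its ratio of 1.91 (1.37 to 2.58) was not past the fold except in cells of at least 1000 genes, at 2.13. A Map2 UMI was seen in 61.9% of neuronal-gene cells (38.4 to 81.9), against 65.2% of progenitor cells (63.5 to 66.9). At 1000 UMIs per cell the shares were 31.6% (12.6 to 56.6) and 27.5% (26.0 to 29.2), with overlapping intervals.

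Gap43 (chromosome 16, 42248442 to 42340651), a membrane protein of growth cones that is also known from radial glia, was abundant in both. It was at 1546 CPM (1268 to 1866) in neuronal-gene cells, against 490.0 CPM (479 to 502) in progenitor cells, a ratio of 3.15 (2.58 to 3.82). The share of cells with a Gap43 UMI was 66.7% (43.0 to 85.4) in neuronal-gene cells and 59.0% (57.3 to 60.7) in progenitor cells. At 1000 UMIs per cell the shares were 47.4% (24.4 to 71.1) and 31.2% (29.6 to 32.9). The median neuronal-gene cell had 4 UMIs and the highest 28, against a median of 1 in progenitor cells.

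Free RNA in droplets can give single UMIs in cells that do not make a transcript. Stmn2 was found in 57.1% of neuronal-gene cells, against 0.417% of progenitor cells, Tubb3 in 71.4% (47.8 to 88.7), against 1.38% (0.9998 to 1.85), and Dcx in 42.9% (21.8 to 66.0), against 0.289% (0.132 to 0.547), at the median depths of 2196 and 3852.5 UMIs given above. The part of free RNA in the low progenitor values of these 3 genes was not tested.

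**Figure D2:**
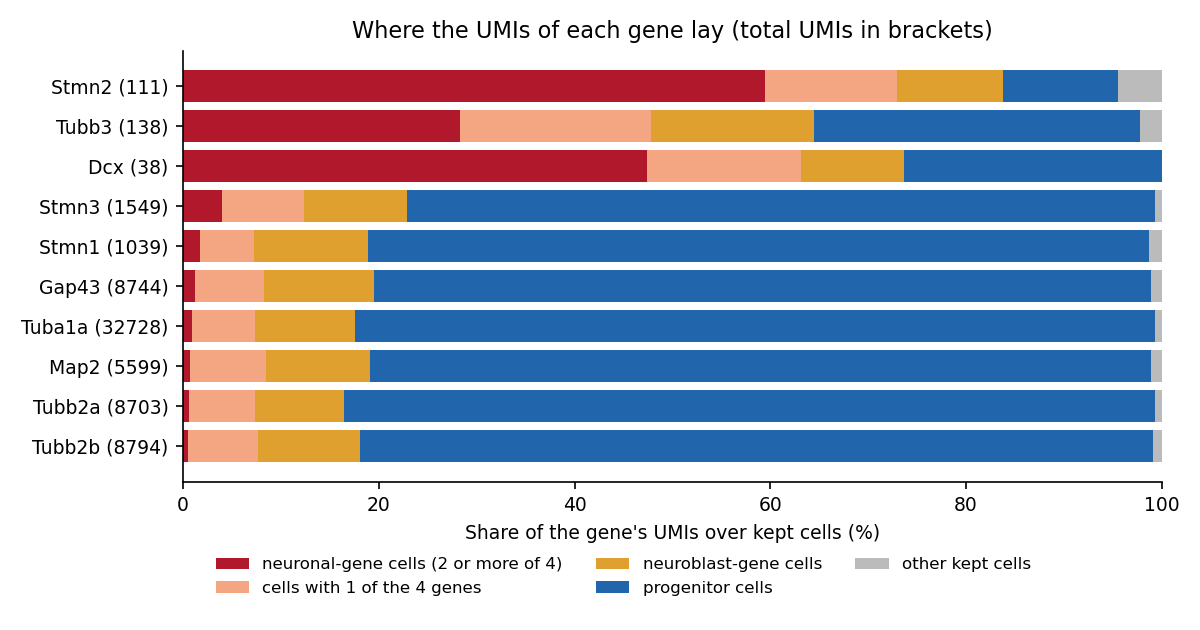
Share of each gene's UMIs over the kept cells that lay in each class of cells, with the gene's total UMIs in brackets. Neuronal-gene cells held 59.5% of Stmn2 UMIs, whereas progenitor cells held between 76.4% and 82.9% of the UMIs of the 7 genes from Stmn3 down. Over all genes, progenitor cells held 14181730 of the 17395968 UMIs.

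Where the UMIs lay shows the same division over the whole pool. The 21 neuronal-gene cells held 66 of 111 Stmn2 UMIs (59.5%), 18 of 38 Dcx UMIs (47.4%) and 39 of 138 Tubb3 UMIs (28.3%). The remaining Stmn2 UMIs were 15 in the 215 cells with 1 of the 4 neuronal genes, 12 in 286 neuroblast-gene cells (any of the 12 neuroblast genes and none of the 4), 13 in progenitor cells and 5 in 1 other cell. Of the 19 cells with at least 2 Stmn2 UMIs, 11 were neuronal-gene cells, 5 had 1 of the 4 genes, 2 were neuroblast-gene cells, 1 was another cell and 0 were progenitor cells. Tubb3 was more widely spread: 46 of its UMIs were in 43 progenitor cells, 3 of which had at least 2. The other members had most of their UMIs in progenitor cells, from 76.4% for Stmn3 to 82.9% for Tubb2a. These shares are near that of all genes together, since progenitor cells held 14181730 of the 17395968 UMIs of the kept cells. The 21 neuronal-gene cells held 69865. Stmn2 was thus the most concentrated of the 10 genes, and none of them was confined to the neuronal-gene cells.

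The 3 most restricted genes were found together more often than in cells without them, though many cells with 1 of them lacked the others. Among the 37 cells with Stmn2, 51.4% (34.4 to 68.1) had Tubb3 and 27.0% (13.8 to 44.1) had Dcx, against 1.90% (1.49 to 2.40) and 0.429% (0.246 to 0.696) of the 3728 cells without Stmn2. Among the 90 cells with Tubb3, 21.1% (13.2 to 31.0) had Stmn2 and 15.6% (8.77 to 24.7) had Dcx, against 0.490% (0.291 to 0.773) and 0.327% of the 3675 cells without Tubb3. Cells with Stmn2 were shallower, at a median of 2464 UMIs against 3877 in those without. Stmn3 was in 59.5% of cells with Stmn2 (42.1 to 75.2), against 25.8% (24.4 to 27.2) of those without, and Stmn1 in 59.5%, against 19.4%. The detection shares of Gap43 and Map2 were close at these unequal depths: Gap43 was in 59.5% of cells with Stmn2 and 59.3% of those without, and Map2 in 64.9% and 65.5%.

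Cells can also be ordered by how many of Stmn2, Tubb3 and Dcx they had, without using the 4 neuronal genes; this split was chosen after the values were seen. There were 3647 cells with 0, 91 with 1, 19 with 2 and 8 with all 3. At least 1 of the 4 neuronal genes was found in 5.46% (4.74 to 6.24), 17.6% (10.4 to 27.0), 73.7% (48.8 to 90.9) and 87.5% (47.3 to 99.7) of them. Gap43 was at 499, 516, 877 and 1741 CPM, Stmn3 at 84.5, 113, 918 and 907 CPM, and Stmn1 at 58.2, 58.3, 387 and 435 CPM. Cells with 1 of the 3 genes were thus near cells with none in these levels, though not in the share with a neuronal gene. Stmn3 and Stmn1 had their step at the second gene, while Gap43 rose at the second and again at the third. Tubb2b, at 501, 597, 836 and 1088 CPM, showed a shallower gradient. The progenitor gene Fabp7, brain lipid-binding protein, was at 7170.4, 7619.5, 3141 and 2866 CPM, and S plus G2/M list UMIs averaged 12.9, 14.6, 4.94 and 3.88 per 1000 UMIs. Median depth was 3869, 4766, 2103 and 1949 UMIs. Of the 8 cells with all 3 genes, 1 with 15293 UMIs in all held 71 Fabp7 UMIs, and the others held 0 to 5 each. The CPM of that group, above all that of Fabp7, are thus weighted to 1 cell.

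**Figure D3:**
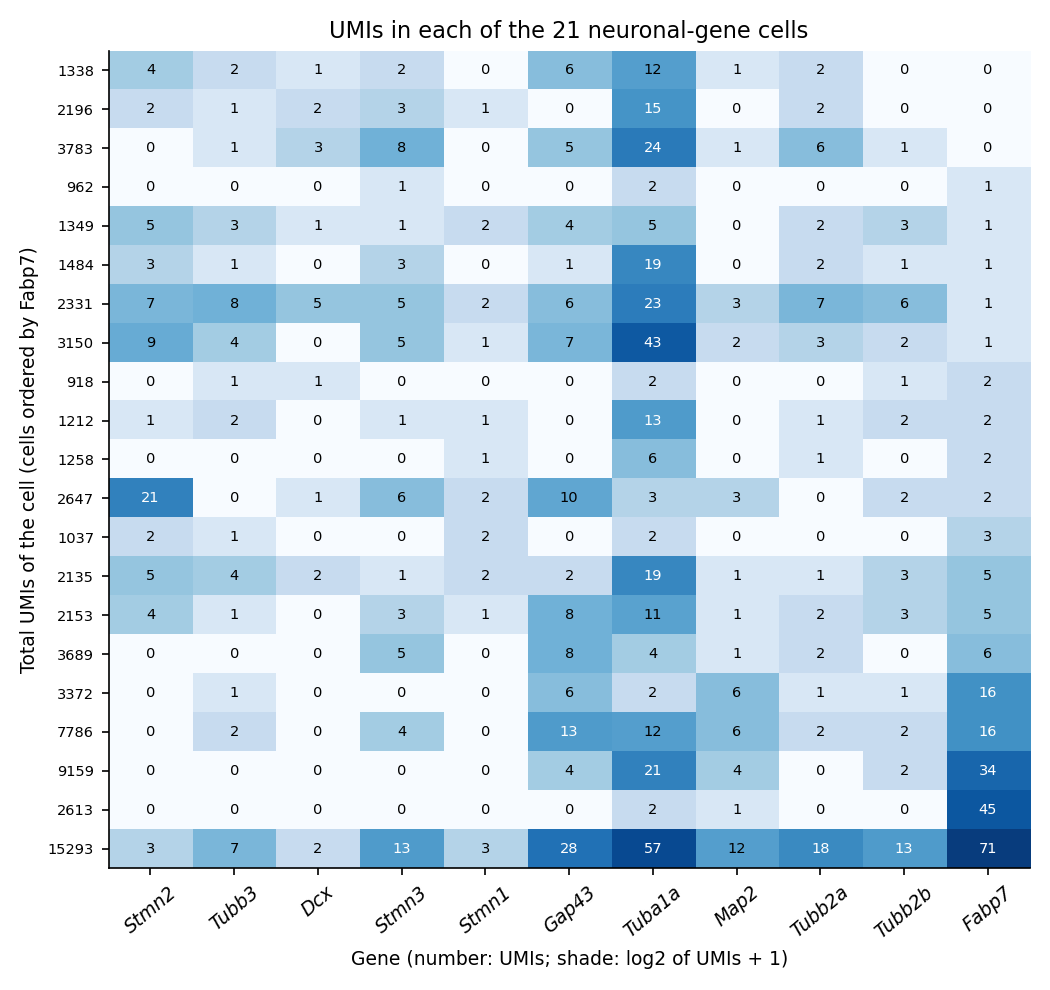
UMIs of the 10 genes and of Fabp7 in each of the 21 neuronal-gene cells, one row per cell, ordered by Fabp7 from low to high and labelled with the cell's total UMIs. Tuba1a is present in every row, and Stmn2 is found in 11 of the 16 cells with fewer than 10 Fabp7 UMIs and in 1 of the 5 others.

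Neuronal-gene cells were not uniform. Median UMIs per cell were 12 for Tuba1a (range 2 to 57), 4 for Gap43 (0 to 28), 2 for Stmn2 (0 to 21), 2 for Stmn3 (0 to 13) and 2 for Tubb2a (0 to 18). They were 1 for Tubb3 (0 to 8), Stmn1 (0 to 3), Map2 (0 to 12) and Tubb2b (0 to 13), and 0 for Dcx (0 to 5). At least 1 of Stmn2, Tubb3 and Dcx was present in 16 of the 21 cells, and 5 had none of them. Progenitor RNA varied widely: 5 of the 21 cells had at least 10 Fabp7 UMIs and a median of 7786 UMIs. Together they held 38223 of the 69865 UMIs of the class, so the CPM of all 21 cells are weighted to them. Of these 5 cells, 1 with 15293 UMIs in all held 28 of the 108 Gap43 UMIs and 57 of the 297 Tuba1a UMIs. No doublet caller was applied, and whether these 5 cells are doublets was not tested.

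The division among the genes was sharper without those 5 cells, a split also chosen after the values were seen. In the remaining 16 cells Stmn2 was at 1991 CPM (1530 to 2547), Tubb3 at 917 CPM (614 to 1316) and Stmn3 at 1391 CPM (1010 to 1867). Against progenitor cells the ratios were 2172 for Stmn2 (1183 to 4302), 283 for Tubb3 (171 to 459) and 16.7 for Stmn3 (12.04 to 22.5). Stmn1 reached 8.11 (4.52 to 13.5) and Tuba1a 3.40 (2.95 to 3.91). Map2, at 411 CPM in these cells, had a ratio of 1.30 (0.693 to 2.23), and Tubb2a one of 1.93 (1.31 to 2.74), neither past the fold. As with all 21 cells, 6 of the 9 genes were above and 0 below (4.53% and 0.942% of all genes).

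By how many of the 4 neuronal genes a cell had, there were 3529 cells with 0, 215 with 1, 16 with 2 and 5 with 3 or more. Stmn2 was at 1.87, 11.9, 1379 and 456 CPM, Tubb3 at 4.48, 21.5, 703 and 395.5 CPM, and Stmn3 at 84.5, 104, 865 and 882 CPM. Tuba1a was at 1887, 1682, 3595 and 4989.5 CPM and Gap43 at 499, 489, 1703 and 1369 CPM. Each of these 5 genes was higher with 2 or more neuronal genes than with 0 or 1. Stmn2, Tubb3 and Gap43 were lower in the 5 cells with 3 or more than in the 16 with 2. Of the 32869 UMIs of those 5 cells, 1 cell with 71 Fabp7 UMIs held 15293 and 1 with 34 held 9159. The CPM of the 5 cells are thus weighted to these 2, which had 3 and 0 Stmn2 UMIs. Whether the lower levels hold without them was not tested. Cells with 1 neuronal gene were deeper than the rest, at a median of 4549 UMIs, against 3848 for cells with 0. Of the 9 genes, 2 were past the fold in cells with 1 neuronal gene over progenitor cells, where 0.172% of genes were above and 0.0543% below: Stmn2 at 13.0 (5.78 to 29.7) and Tubb3 at 6.62 (3.96 to 10.9). Few cells carried these levels: 5 of the 215 held 14 of the 15 Stmn2 UMIs and 6 of the 27 Tubb3 UMIs, and in the other 210 cells Stmn2 was at 0.801 CPM (0.0203 to 4.46) and Tubb3 at 16.8 CPM (10.4 to 25.7).

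Neuroblast-gene cells had a UMI of at least 1 of the Dlx, Sp8, Neurod and related transcription factor genes, which are known from committed neuronal precursors. By other markers they were close to progenitor cells. The progenitor list was at 12988.5 CPM, against 13414 CPM, and the 6 other neuron markers at 53.2 CPM, against 46.5 CPM. They were deeper, at a median of 5252.5 UMIs, against 3852.5. Neuroblast-gene cells differed from progenitor cells in the same pair of genes. Stmn2 was at 6.94 CPM, against 0.917 CPM in progenitor cells, a ratio of 7.57 (3.16 to 18.0), and Tubb3 at 13.3 CPM, against 3.24 CPM, a ratio of 4.10 (2.37 to 6.91). Of the 286 cells, 2 held 9 of the 12 Stmn2 UMIs and 9 of the 23 Tubb3 UMIs, and in the other 284 cells Stmn2 was at 1.74 CPM (0.359 to 5.09) and Tubb3 at 8.12 CPM (4.44 to 13.6). Over all 286 cells these were 2 of the 9 genes above the limit and 0 were below, where 0.0724% and 0.0362% of all genes lay. Dcx had 4 UMIs in neuroblast-gene cells, too few to place it. The other 7 members were within 0.907 and 1.20 times their progenitor levels, from Tubb2a to Stmn1. In neuronal-gene cells over neuroblast-gene cells, 6 of the 9 were above and 0 below (3.69% and 0.634% of all genes), with Stmn2 at 136 (72.9 to 277), Tubb3 at 42.0 (24.4 to 73.6) and Stmn3 at 9.26 (6.78 to 12.5).

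Other gene-defined kinds of progenitor were compared as well. Of the 9 genes, 0 were past the fold in the 620 Delta cells, which have the Notch ligand genes Dll1 or Dll3, over the other progenitors, where 0.0814% of genes were above and 0.0905% below. In the 327 cells with at least 2 of 5 hypoxia genes 0 were past it (0.977% above, 0.0362% below), and Gap43 was at 385 CPM there, against 507 CPM in other progenitors. In the 18 cells with at least 2 of 5 oligodendrocyte precursor genes 0 were past it either (1.56% above, 0.47% below), at a low precision. In those 18 cells Gap43 had a ratio of 0.428 (0.234 to 0.719), Map2 one of 1.96 (1.41 to 2.67) and Stmn1 one of 2.85 (1.42 to 5.13). Tubb3 had 2 UMIs in them, against 44 in other progenitors, a ratio of 9.64 (1.13 to 37.0). Dcx, not among the 9, had 2, against 8, a ratio of 53.0 (5.49 to 265.7).

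The cell cycle separated the shared genes further. Progenitor cells of at least 1000 UMIs were thinned to 1000 UMIs and classed by 43 S phase and 53 G2/M genes: 719 were G2/M-high (at least 14 G2/M UMIs), 537 were S-high (at least 7 S UMIs and not G2/M-high) and 692 were cycle-low (at most 4 UMIs of either). Of the 9 genes, 1 was above and 1 below the limit in G2/M-high over cycle-low progenitors, where 4.56% of 10961 genes were above and 3.28% below. Stmn1 was the one above. It was at 80.5 CPM (72.0 to 89.7) in G2/M-high and 72.1 CPM (62.2 to 83.3) in S-high progenitors, against 23.1 CPM (17.9 to 29.4) in cycle-low progenitors. The ratios to cycle-low cells were 3.48 (2.67 to 4.61) and 3.12 (2.34 to 4.196), and in S-high over cycle-low progenitors Stmn1 was the 1 gene above the limit, with 0 below (4.27% and 1.74% of all genes). Between G2/M-high and S-high progenitors 0 of the 9 were past the fold (1.25% above, 0.611% below), and Stmn1 had a ratio of 1.12 (0.930 to 1.34).

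Gap43 went the other way. It was at 371 CPM (352 to 390.1) in G2/M-high and 454 CPM (428 to 480.4) in S-high progenitors, against 699 CPM (669 to 730.3) in cycle-low progenitors. Its ratio was 0.531 (0.496 to 0.568) for G2/M-high cells, below the limit, and 0.649 (0.603 to 0.698) for S-high cells, not past it except in 2 of 14 other settings. Stmn3 did not behave like Stmn1: it was at 71.7 CPM in G2/M-high and 96.8 CPM in S-high progenitors, against 86.9 CPM in cycle-low progenitors. Map2 was at 269 CPM in G2/M-high and 308 CPM in S-high progenitors, against 358 CPM in cycle-low progenitors, with ratios of 0.750 (0.688 to 0.818) and 0.860 (0.783 to 0.944), not past the fold.

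The 3 shared tubulins were each higher in G2/M-high than in cycle-low progenitors without their whole intervals passing 1.5. Tubb2a was at 623 CPM in G2/M-high, against 391 CPM in cycle-low progenitors, a ratio of 1.60 (1.49 to 1.71) just short of the limit, which it passed in 8 of 14 other settings. Tubb2b was at 618 CPM, against 422 CPM, a ratio of 1.46 (1.37 to 1.57), and Tuba1a at 2163 CPM, against 1499.8 CPM, a ratio of 1.44 (1.39 to 1.496). In S-high over cycle-low progenitors the ratios were 1.32 (1.22 to 1.43) for Tubb2a, 1.03 (0.9504 to 1.12) for Tubb2b and 1.11 (1.06 to 1.16) for Tuba1a. Stmn2 had 5 UMIs in G2/M-high, 4 in S-high and 0 in cycle-low progenitors, Dcx had 2, 2 and 3, and Tubb3 had 14, 7 and 10, too few to relate to the cycle. G2/M-high progenitors were deeper, at a median of 4833 UMIs, against 3671.5 in cycle-low progenitors. Among cells of 3000 to 6000 UMIs, a range set after the values were seen, Stmn1 was again above the limit and Gap43 below it in G2/M-high over cycle-low progenitors.

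**Figure D4:**
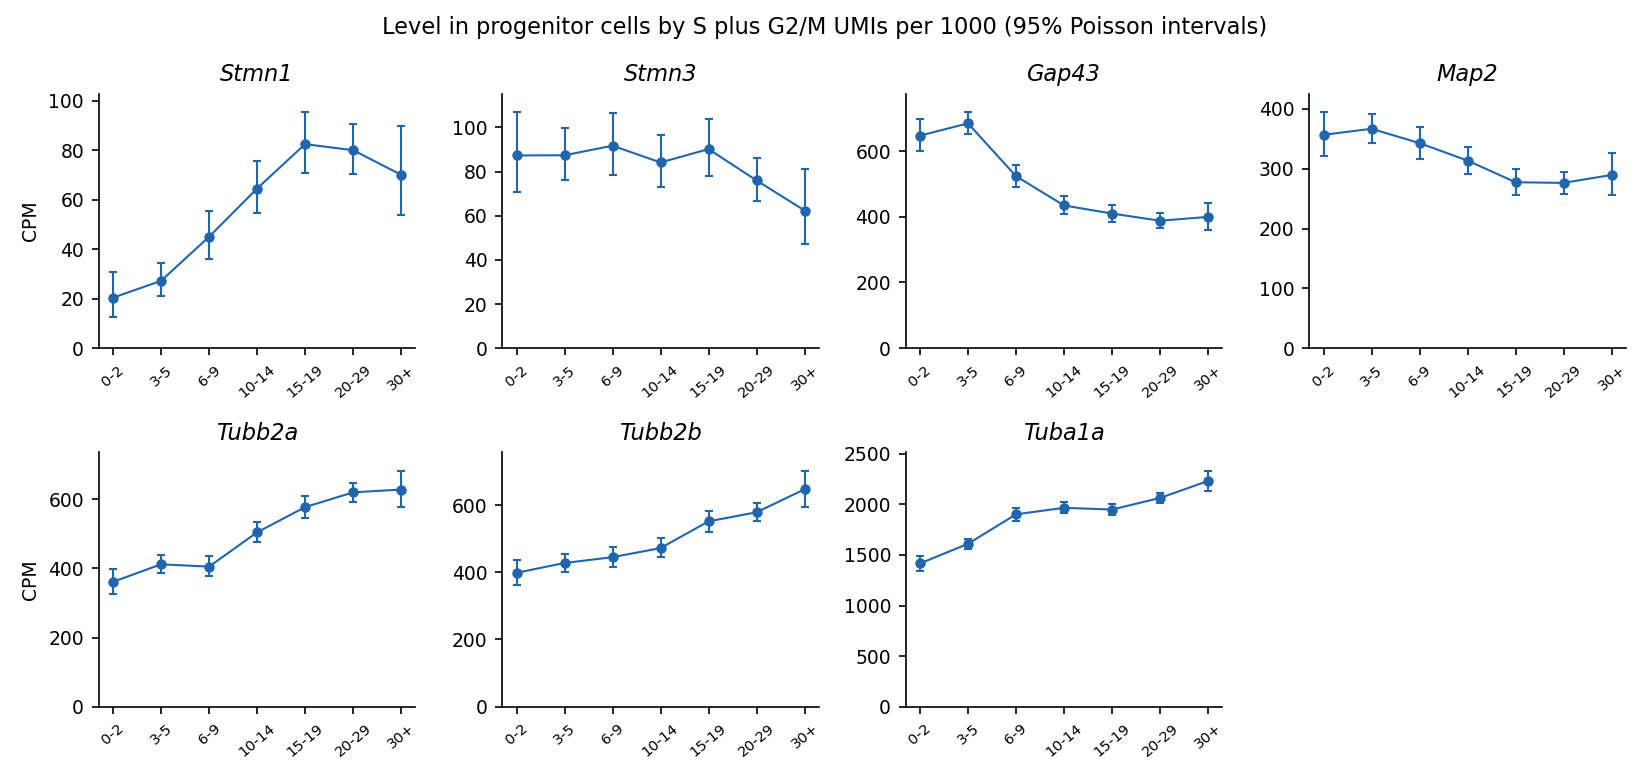
Level (CPM) of the 7 shared genes in progenitor cells grouped by their S plus G2/M UMIs per 1000 UMIs, with exact 95% Poisson intervals; all vertical axes start at 0. Stmn1 is highest from 15 UMIs on, Gap43 is lowest from 15 UMIs on, and the 3 tubulins are highest in the group of 30 or more.

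Finer groups of progenitors, by 0 to 2, 3 to 5, 6 to 9, 10 to 14, 15 to 19, 20 to 29 and 30 or more cycle UMIs per 1000, gave Stmn1 levels of 20.4, 27.2, 45.1, 64.6, 82.5, 80.1 and 70.2 CPM. Gap43 was at 647, 685, 524, 435, 409.9, 388 and 399.8 CPM. Stmn1 thus levelled off in the upper groups and Gap43 was flat across them, with most of the difference between the groups of 3 to 5 and of 15 to 19 for Stmn1, and of 3 to 5 and of 10 to 14 for Gap43. Tuba1a was at 1416, 1611, 1902, 1966, 1949, 2064 and 2232 CPM, and Tubb2b at 398, 428, 445, 472, 552, 579 and 647 CPM, higher in each group than in the one before except for Tuba1a at 15 to 19. Tubb2a was at 361, 412, 405, 504, 577, 619.9 and 628 CPM. Stmn3 stayed between 84.1 and 91.7 CPM up to 19 cycle UMIs and was at 76.0 and 62.4 CPM above. Median depth ran from 3546 UMIs in the lowest group to 5162 UMIs in the highest.

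Neuronal-gene cells had few cycle transcripts: the 19 of at least 1000 UMIs averaged 6.53 S plus G2/M UMIs per 1000 (0 to 20), against 12.9 in progenitor cells and 2.72 in cycle-low progenitors. Of the 16 neuronal-gene cells with fewer than 10 Fabp7 UMIs, 14 had that depth, and their mean was 4. Set against cycle-low progenitors instead of all progenitor cells, 6 of the 9 genes were again above the limit in neuronal-gene cells and 0 below, where 3.88% and 0.616% of all genes lay.

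The make-up of each family brings these patterns together. These shares were added after the values were seen. Those of Stmn1, Tubb2a and Tuba1a carry the uncertainty from near-identical copies given above. Of stathmin UMIs (Stmn1 to Stmn4) in neuronal-gene cells, Stmn2 made up 32.2% (25.9 to 39.1), Stmn3 29.8% (23.6 to 36.5), Stmn4 29.3% (23.1 to 36.0) and Stmn1 8.78% (5.29 to 13.5), at a family level of 2934 CPM. In G2/M-high progenitors Stmn1 made up 52.3% (48.3 to 56.3) and Stmn3 46.6% (42.6 to 50.6), and in cycle-low progenitors Stmn1 made up 19.5% (15.4 to 24.1) and Stmn3 73.2% (68.1 to 77.8). The family level was 154 CPM in G2/M-high and 175 CPM in S-high progenitors, against 119 CPM in cycle-low progenitors, and Stmn1 made up 41.2% (36.6 to 45.9) in S-high progenitors.

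Of beta-tubulin UMIs, Tubb3 made up 18.4% (13.4 to 24.3) in neuronal-gene cells, against 0.125% (0.0916 to 0.167) in progenitor cells. The isotype gene Tubb5, common in dividing cells, made up 31.6% (25.4 to 38.3) in neuronal-gene cells, against 47.0% (46.5 to 47.5) in progenitor cells. Tubb2a and Tubb2b together with Tubb3 were thus the larger part in neuronal-gene cells. Within progenitors Tubb2a and Tubb2b made up 16.7% and 16.5% in G2/M-high cells, against 25.4% and 27.5% in cycle-low cells. Their own levels were higher in G2/M-high cells, but other isotypes were higher by more: the beta-tubulin sum was 3743 CPM in G2/M-high and 1537 CPM in cycle-low progenitors. Of alpha-tubulin UMIs, Tuba1a made up 94.0% (90.8 to 96.3) in neuronal-gene cells, against 74.8% (74.4 to 75.3) in progenitor cells. It made up 67.4% (66.5 to 68.2) in G2/M-high, against 89.2% (88.3 to 90.1) in cycle-low progenitors.

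**Figure D5:**
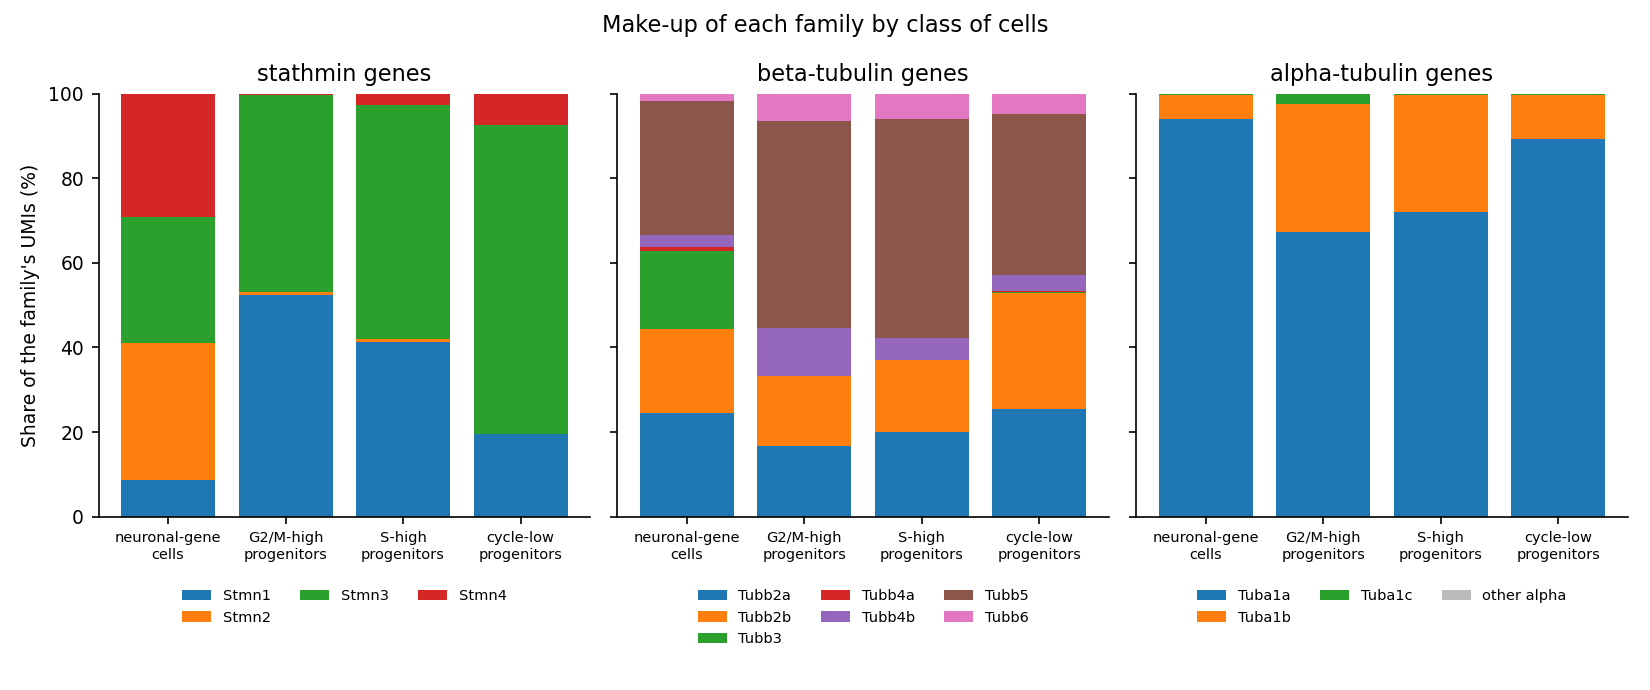
Share of each gene among the UMIs of its family (stathmins, beta-tubulins, alpha-tubulins) in neuronal-gene cells and in G2/M-high, S-high and cycle-low progenitors. Stmn2 makes up 32.2% and Tubb3 18.4% of their families in neuronal-gene cells and under 1% in the 3 progenitor classes, and Tuba1a makes up 94.0% of alpha-tubulin UMIs there.

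Other genes of the same systems were counted from lists. Of 10 other tubulin genes compared, 0 were past the fold in neuronal-gene cells over progenitor cells, with a median ratio of 0.579. In G2/M-high over cycle-low progenitors 8 of the 10 were above the limit, with a median of 3.71 against 0.942 over all genes. They included Tubb5 at 3.15 (2.99 to 3.32), Tubb4b at 7.03 (6.01 to 8.28), Tuba1b at 5.57 (5.07 to 6.12) and Tuba1c at 18.1 (9.99 to 36.8), and in S-high over cycle-low progenitors 6 of the 10 were above. Tuba1a, Tubb2a and Tubb2b, at 1.44 to 1.60 as given above, were below each of these 8. Of 3 relatives of the stathmins and doublecortin compared, Stmn4, a neural stathmin, was above the limit in neuronal-gene cells, at 859 CPM against 4.16 CPM in progenitor cells, a ratio of 206 (142 to 301). In G2/M-high over cycle-low progenitors Stmn4 had 2 UMIs against 25, a ratio of 0.0562 (0.00645 to 0.226), and the doublecortin-like kinase gene Dclk1 a ratio of 0.551 (0.487 to 0.623), both below the limit.

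Of 24 other genes for microtubule-associated proteins and motors compared, 6 were above and 1 below the limit in neuronal-gene cells over progenitor cells. Mapt, encoding the axonal protein tau, had a ratio of 21.5 (14.3 to 31.4), the kinesin heavy chain gene Kif5c 37.2 (22.5 to 59.0) and Map1b 5.44 (3.90 to 7.38), all above that of Map2. The spindle assembly gene Tpx2, at 0.169 (0.0348 to 0.494), was the one below. Of 25 growth-cone and axon genes compared 13 were above and 0 below, with a median ratio of 3.23. They included Basp1, a relative of Gap43 in function at the growth-cone membrane, at 4.12 (3.26 to 5.13), Crmp1 at 7.74 (5.11 to 11.3), Uchl1 at 12.1 (9.34 to 15.5) and the neurofilament gene Ina at 43.5 (18.6 to 90.7). In G2/M-high over cycle-low progenitors 0 of those 25 were past the fold, where 4.56% of all genes were above and 3.28% below. Their median ratio there was 0.858, against 0.942 over all genes. Of 11 immature neuron genes compared, 7 were above and 0 below in neuronal-gene cells, among them Celf4 at 96.8 (67.9 to 136) and Nsg2 at 90.9 (63.0 to 129), ratios between those of Stmn3 and Tubb3.

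Likeness over the 3765 kept cells was weak. It was measured for the 7 members with at least 500 UMIs, as Pearson's r of log(1 + UMIs per 10000) with every other gene of at least 200 UMIs. These cells share a pool and differ in depth, so r is a description. Tuba1a was most like Cenpa (r = 0.298), Tuba1b (0.291) and Pttg1 (0.291), Tubb2a most like Tuba1b (0.248), Tubb5 (0.236) and Ube2c (0.205), all genes of dividing cells or tubulins. Gap43 was most like Serpine2 (0.257), Sparc (0.213) and Trp53i11 (0.212). No gene reached 0.2 for Stmn1, Stmn3, Map2 or Tubb2b. Among the members themselves the highest r was 0.264, between Tuba1a and Tubb2b, and Gap43 and Stmn1 had r = 0.0191.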

How the data were processed

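Drop-seq libraries of LIF-grown neurospheres were analysed from the deposited table of raw UMI counts, which holds whole numbers that were not normalized. The submitters' processing notes name build mm10; the aligner, counter, strand setting and annotation behind the counts are not stated in any label or header used. The 2 samples could not be told apart among the 4000 barcodes, so no test was run. The 10 genes, the gene lists and the classes were chosen with earlier results of these data known. Cells needed at least 500 genes and at most 10% mitochondrial UMIs. Counts were summed per class, with exact Poisson, Clopper-Pearson and conditional binomial intervals at 95%. Cycle classes used random thinning to 1000 UMIs (seed 1), with limits at about 25% of progenitor cells; 112 shallower progenitor cells were left out. Near those limits, at or 1 UMI off, lay 142 cells for G2/M, 373 for S and 384 for cycle-low. The genes defining a class were left out of its comparison, except that S and G2/M genes stayed in that of neuronal-gene cells over cycle-low progenitors. Genes named are the 10, list genes past the 1.5-fold limit and, for likeness, up to 3 per gene at r of at least 0.2. Ratios and thinning were tested on simulated data. Positions are from GENCODE M21, and transcript ends were compared with BLAST+ 2.17.0. Scripts used matplotlib 3.10.9, pandas 2.3.3, scipy 1.17.1 and numpy 2.4.6 under Python 3.11.15.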

Additional observations from a re-analysis of the deposited data

How the results depend on the processing

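The 6 genes above the limit in neuronal-gene cells over progenitor cells rest on 21 cells, and precision there is set by counts as low as 18 UMIs. No paired analysis was possible because barcodes carry no sample or replicate number and no test was run. Of 15 alternatives, 14 kept that count within 1.5 times; with cells of at least 1 neuronal gene it was 2, with Stmn1 at 0.967 and Tuba1a at 0.963. Stmn2 and Tubb3 were above the limit under all 15, at 66.6 to 2172 (with no ratio against cycle-low cells, where Stmn2 is at 0) and 15.3 to 283, and Tubb2b under none, at 1.01 to 1.51. The count above in G2/M-high over cycle-low progenitors was 1; it was 2 with no mitochondrial limit, without the 5% of cells with the most UMIs, without barcodes ending in N, with thinning to 500 or 2000 UMIs, with another seed, with classes from the share of all UMIs or with the mean of per-cell CPM. Tubb2a, near the limit, passed it in 8 of the 14 alternatives, at 1.44 to 1.72. Gap43 was below it in 13 of 14, the count being 0 at a fold of 2. In S-high over cycle-low progenitors, where 0 were below, the mean of per-cell CPM and no mitochondrial limit each gave 1 below, Gap43. Per-cell means were called on the point ratio alone, and Stmn2, with 0 UMIs in cycle-low cells, was not called there. Which property of the cells moved these counts was not tested. Stmn1 was above the limit in all 14 alternatives of both cycle comparisons, at 2.89 to 4.36 and 2.76 to 3.72.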
